A study of Sus scrofa with 24 samples.

Results

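A set of 10 genes of the cAMP response was followed in pig fat cell precursors as they were driven to differentiate, namely the orphan nuclear receptors NR4A1, NR4A2 and NR4A3, the transcription factors CREM and FOSB, the phosphodiesterases PDE4B, PDE4D, PDE7B and PDE10A, and the coactivator PPARGC1A. They were taken by symbol from a table of 25462 genes. Of the 10 members, 9 were matched to a row and 8 passed the limit for testing. CREM had no matched row, so its expression was not analysed here, and PPARGC1A summed to 0.224 FPKM over all libraries and was not tested.

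The cells were primary preadipocytes from Yorkshire piglets 6 days old, grown from back subcutaneous fat (BF) or from digested longissimus dorsi muscle (IMF, intramuscular), with no genetic change. Polyadenylated RNA was sequenced on day 0, 2, 4 or 8 of culture, with 3 libraries in each of the 8 groups, so that BF-2d names subcutaneous cells on day 2. All cells received the same media, in which day 0 cells had not yet been induced, day 2 cells had spent 2 days with insulin, the glucocorticoid dexamethasone and IBMX, which inhibits phosphodiesterases, day 4 cells had then received insulin, and day 8 cells had been returned to growth medium. The cells came from 3 piglets, but the labels do not tie a replicate number to a piglet, so p-values measure the spread between these libraries, which may be technical in part.

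Cyclic AMP is made by adenylyl cyclases when receptors for adrenaline, prostaglandins or adenosine act through a stimulatory G protein, and it is broken down by phosphodiesterases. It frees the catalytic subunits of protein kinase A, which phosphorylate CREB on the cAMP response element (CRE) of its target genes. The NR4A receptors, FOSB and the short CREM product ICER are early targets of this route, PDE4 enzymes are induced by it and limit it, and PPARGC1A is its target in brown fat and liver. In fat cell cultures the route is switched on by IBMX, which blocks most phosphodiesterases, and it is a standard trigger of adipogenesis.

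Some sequences in which the CRE or its 5-base core stood before a transcript start are shown because the CRE is the site through which this route is known to reach its targets. Windows from 250 bases before to 50 bases after each of 68 RefSeq mRNA starts of 9 members were read from Sscrofa11.1 on the strand of the gene. NR4A1 lies at chr5:17403088-17407918 on the plus strand in a RefSeq pseudogene entry and gave no window. The deposited row matched to that entry was read as the NR4A1 gene, and every NR4A1 value below rests on this reading. Capitals mark TGACGTCA (the full CRE, which reads the same on both strands and holds a core on each) and, where no full CRE was present, the core TGACG or its reverse complement. The stretches were chr15:63495419-63495448 (minus strand) for NR4A2, chr1:241569738-241569866 (plus strand) for NR4A3 and chr8:17947057-17947184 (minus strand) for PPARGC1A. The NR4A2 stretch lies in an exon of a longer transcript of the gene, and the other stretches lie in no annotated exon.
NR4A2: tgccctgctcgTGACGTCAggtcggaaata
NR4A3: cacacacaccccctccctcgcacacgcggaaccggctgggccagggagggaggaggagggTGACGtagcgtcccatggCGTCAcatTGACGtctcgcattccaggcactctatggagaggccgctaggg
PPARGC1A: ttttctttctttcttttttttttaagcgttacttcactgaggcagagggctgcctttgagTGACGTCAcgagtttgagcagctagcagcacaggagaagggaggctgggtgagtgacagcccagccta

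In the stretches shown, the full CRE stood 65 bases before the NR4A2 start at 63495372 and 190 bases before the PPARGC1A start at 17946934, and they are not all the matches found in members. The same NR4A2 site also lay 141 bases before a neighbouring start. Over all 47449 windows of the annotation, 1.97% held the full CRE and 24.44% held the core. NR4A3 had no full CRE, but the 2 windows around its adjacent first starts held 4 cores, at bases -69, -51, -43 and 16 from the first start, and 0.31% of all windows held 4 or more. The windows of PDE10A and FOSB held neither motif, and those of CREM, PDE4B and PDE4D held the core in 1 window each. A match is a description of letters in a window and says nothing about binding.

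The values are FPKM, fragments scaled by the authors to transcript length and to the mapped fragments of a library, so the table holds no read counts and the number of reads behind each value is unknown. The sequencing totals that the study gives per library were not used here. Summed FPKM ran from 307967 to 385768 per library, and 9985 to 10858 genes reached 1 FPKM. Differences were tested with limma on log2(FPKM + 1) over 16135 genes, and called genes had an adjusted p under 0.01 (Benjamini-Hochberg) with a difference of at least 1 on that scale, which understates the change of low genes. Changes below are log2 differences with the standard error (SE), and group levels are mean FPKM ± SD with n = 3. The members and lists were chosen with earlier results of these data known. Their counts beside the share of all genes are thus descriptions and no independent test. The 8 adipocyte markers (PPARG, CEBPA, FABP4, LPL, CIDEC, ADIPOQ, PLIN1 and LEP) summed to 9.16 to 10.9 FPKM in BF-0d and 281 to 622 FPKM in BF-8d, and to 2.79 to 3.67 in IMF-0d and 97.2 to 143 in IMF-8d, while ADIPOQ, PLIN1 and LEP stayed under 1 FPKM in every library. Of 8 myogenic markers, MYF5 and MYOD1, which define muscle precursors, were listed at 0 throughout and 7 were under 1 FPKM in every library. The other, DES, which smooth muscle also makes, was called higher in IMF cells on each day (2.72, 1.25, 3.61 and 1.33), and the 8 summed to 29.7 to 45.4 FPKM in IMF-0d against 4.56 to 4.91 in BF-0d. Of 5 immune markers, PTPRC, CSF1R and CD3E were under 1 FPKM in every library, and the 5 summed to 3.14 to 18.8 FPKM, the highest in a BF-4d library.

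A pair of day 2 libraries touch most results for that day, and 1 library of day 4 also stood apart. BF-2d replicate 3 stood apart, since it correlated with replicate 2 at r = 0.973 over genes, the lowest value among replicate pairs, and its markers were nearer those of day 0. Its adipocyte markers summed to 23.1 FPKM against 93.4 and 88.0 in the other BF-2d libraries, its smooth muscle and pericyte markers to 607 against 68.2 and 109, and its stromal markers to 12833 against 8298 and 6547. IMF-2d replicate 2 did not stand apart over genes (r = 0.996 and 0.994 with the other 2), but it had the highest value of its group for all 3 NR4A genes, PDE4B, PDE4D and PDE7B, while its adipocyte markers summed to 7.64 FPKM against 5.34 and 5.18 and its stromal markers to 12919.5 against 13705 and 14359. It was doubted for the values of those members, so leaving it out widens their depot difference on day 2 by the choice itself and is no test of it. BF-4d replicate 3 correlated with the others at r = 0.977 and 0.980, against 0.994 between them. It held the highest immune marker sum (18.8 FPKM against 3.83 and 3.14) and the lowest BF-4d value of the NR4A genes, PDE4B, PDE7B and PDE10A. In bulk RNA, fewer cells of a type and less RNA per cell cannot be told apart.

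The NR4A genes encode nuclear receptors that act without a known ligand and are controlled mainly by how much of them is made. NR4A2 had the highest level of any member. It measured 3.76, 4.53 and 5.29 FPKM in BF-0d, 105, 66.5 and 17.9 in BF-2d, 87.9, 96.0 and 61.3 in BF-4d, and 62.1, 53.6 and 56.1 in BF-8d. In IMF cells it measured 2.61, 3.32 and 2.50 FPKM in IMF-0d, 6.42, 20.1 and 4.57 in IMF-2d, 4.61, 3.98 and 4.45 in IMF-4d, and 113, 139 and 119.7 in IMF-8d. Subcutaneous cells were thus high from day 2 on, whereas intramuscular cells were near their day 0 level on day 4 and above every other group on day 8. Ordered by mean, IMF-8d (124 ± 13.6) stood clear of BF-4d (81.7 ± 18.1). BF-4d overlapped BF-2d (63.2 ± 43.8), which overlapped BF-8d (57.3 ± 4.35), and BF-8d stood clear of IMF-2d (10.4 ± 8.47), which the lowest BF-2d library overlapped. IMF-2d also overlapped BF-0d (4.53 ± 0.763), which overlapped IMF-4d (4.35 ± 0.329), and IMF-4d stood clear of IMF-0d (2.81 ± 0.442).

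NR4A1 is also known as NUR77. It measured 7.72, 7.99 and 9.03 FPKM in BF-0d, 67.2, 69.7 and 15.9 in BF-2d, 72.4, 54.4 and 25.7 in BF-4d, and 16.7, 11.9 and 11.9 in BF-8d. The IMF values were 4.92, 3.003 and 3.96 FPKM on day 0, 20.3, 55.0 and 13.3 on day 2, 6.05, 4.76 and 5.43 on day 4, and 49.6, 52.3 and 63.4 on day 8. The BF-4d and BF-8d libraries did not overlap, and neither did those of IMF-2d and IMF-4d. The groups IMF-8d (55.1 ± 7.31), BF-2d (50.9 ± 30.3), BF-4d (50.8 ± 23.5), IMF-2d (29.5 ± 22.3) and BF-8d (13.5 ± 2.80) formed an unbroken chain of overlaps, and BF-0d (8.25 ± 0.690), IMF-4d (5.41 ± 0.642) and IMF-0d (3.96 ± 0.958) lay below it.

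NR4A3, the third receptor of the family, was the lowest of them on day 0. It measured 0.485, 0.867 and 0.631 FPKM in BF-0d, 49.4, 13.1 and 4.13 in BF-2d, 23.1, 18.1 and 13.6 in BF-4d, and 14.1, 6.74 and 8.48 in BF-8d. In IMF cells it measured 0.253, 0.129 and 0.192 FPKM on day 0, 1.57, 7.61 and 0.609 on day 2, 0.741, 0.464 and 0.671 on day 4, and 12.8, 20.7 and 16.1 on day 8. Every BF library from day 2 on and every IMF-8d library exceeded 4 FPKM, and every day 0 and IMF-4d library was under 1 FPKM. The mean of IMF-8d was 86.4 times that of IMF-0d, against 44.1 times for NR4A2 and 13.9 times for NR4A1.

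PDE4B and PDE4D belong to the cAMP-specific enzyme family that rolipram inhibits. PDE4B measured 4.46, 2.48 and 2.93 FPKM in BF-0d, 63.0, 40.2 and 39.5 in BF-2d, 46.7, 43.2 and 34.0 in BF-4d, and 16.2, 48.5 and 30.7 in BF-8d. In IMF cells it measured 2.89, 3.29 and 2.25 FPKM on day 0, 19.7, 34.4 and 14.1 on day 2, 11.9, 18.7 and 18.3 on day 4, and 22.1, 43.6 and 24.5 on day 8. PDE4B thus stayed above both day 0 groups in every later library of both depots, BF-2d replicate 3 included. In IMF-4d, where the NR4A genes were 1.37 to 3.27 times their day 0 means, PDE4B was 5.79 times its own.

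PDE4D measured 1.35, 1.51 and 1.39 FPKM in BF-0d, 25.7, 10.9 and 5.07 in BF-2d, 24.04, 29.3 and 32.0 in BF-4d, and 23.1, 6.55 and 14.9 in BF-8d. Its IMF values were 0.941, 0.749 and 0.531 FPKM on day 0, 3.01, 6.57 and 1.53 on day 2, 2.48, 2.36 and 2.88 on day 4, and 17.2, 23.1 and 15.5 on day 8. Its mean was highest in BF-4d (28.5 ± 4.06), whose libraries lay above those of IMF-8d (18.6 ± 4.01) but overlapped those of BF-2d. IMF-8d, BF-8d (14.8 ± 8.28), BF-2d (13.9 ± 10.6), IMF-2d (3.71 ± 2.59) and IMF-4d (2.57 ± 0.274) formed an unbroken chain of overlaps, clear of both day 0 groups.

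PDE7B, a cAMP-specific enzyme that rolipram does not inhibit, was lower. It measured 0.457, 0.299 and 0.493 FPKM in BF-0d, 10.7, 5.49 and 3.41 in BF-2d, 11.2, 5.19 and 2.71 in BF-4d, and 1.75, 3.88 and 2.73 in BF-8d. The IMF values were 0.581, 0.560 and 0.308 FPKM on day 0, 2.50, 4.98 and 1.54 on day 2, 2.52, 2.18 and 2.39 on day 4, and 2.25, 4.04 and 3.14 on day 8. Every library after day 0 lay above every day 0 library, and the 6 later groups overlapped one another in order of their means, from BF-2d (6.52 ± 3.73) to IMF-4d (2.36 ± 0.1695).

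The other 3 members were barely expressed. PDE10A, an enzyme of cAMP and cGMP best known from the striatum, was under 1 FPKM in every library and reached 0.972, 0.783 and 0.416 FPKM in BF-4d and 0.419, 0.617 and 0.294 in IMF-8d, against at most 0.0482 FPKM in the 6 day 0 libraries. FOSB, a FOS family subunit of AP-1, ran from 0.0782 FPKM in an IMF-8d library to 1.06 FPKM in a BF-4d library. The level of PPARGC1A, which drives mitochondrial genes in brown fat, was at most 0.0593 FPKM, and it was listed at 0 in all libraries of BF-0d, BF-8d and IMF-2d.

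**Figure D1:**
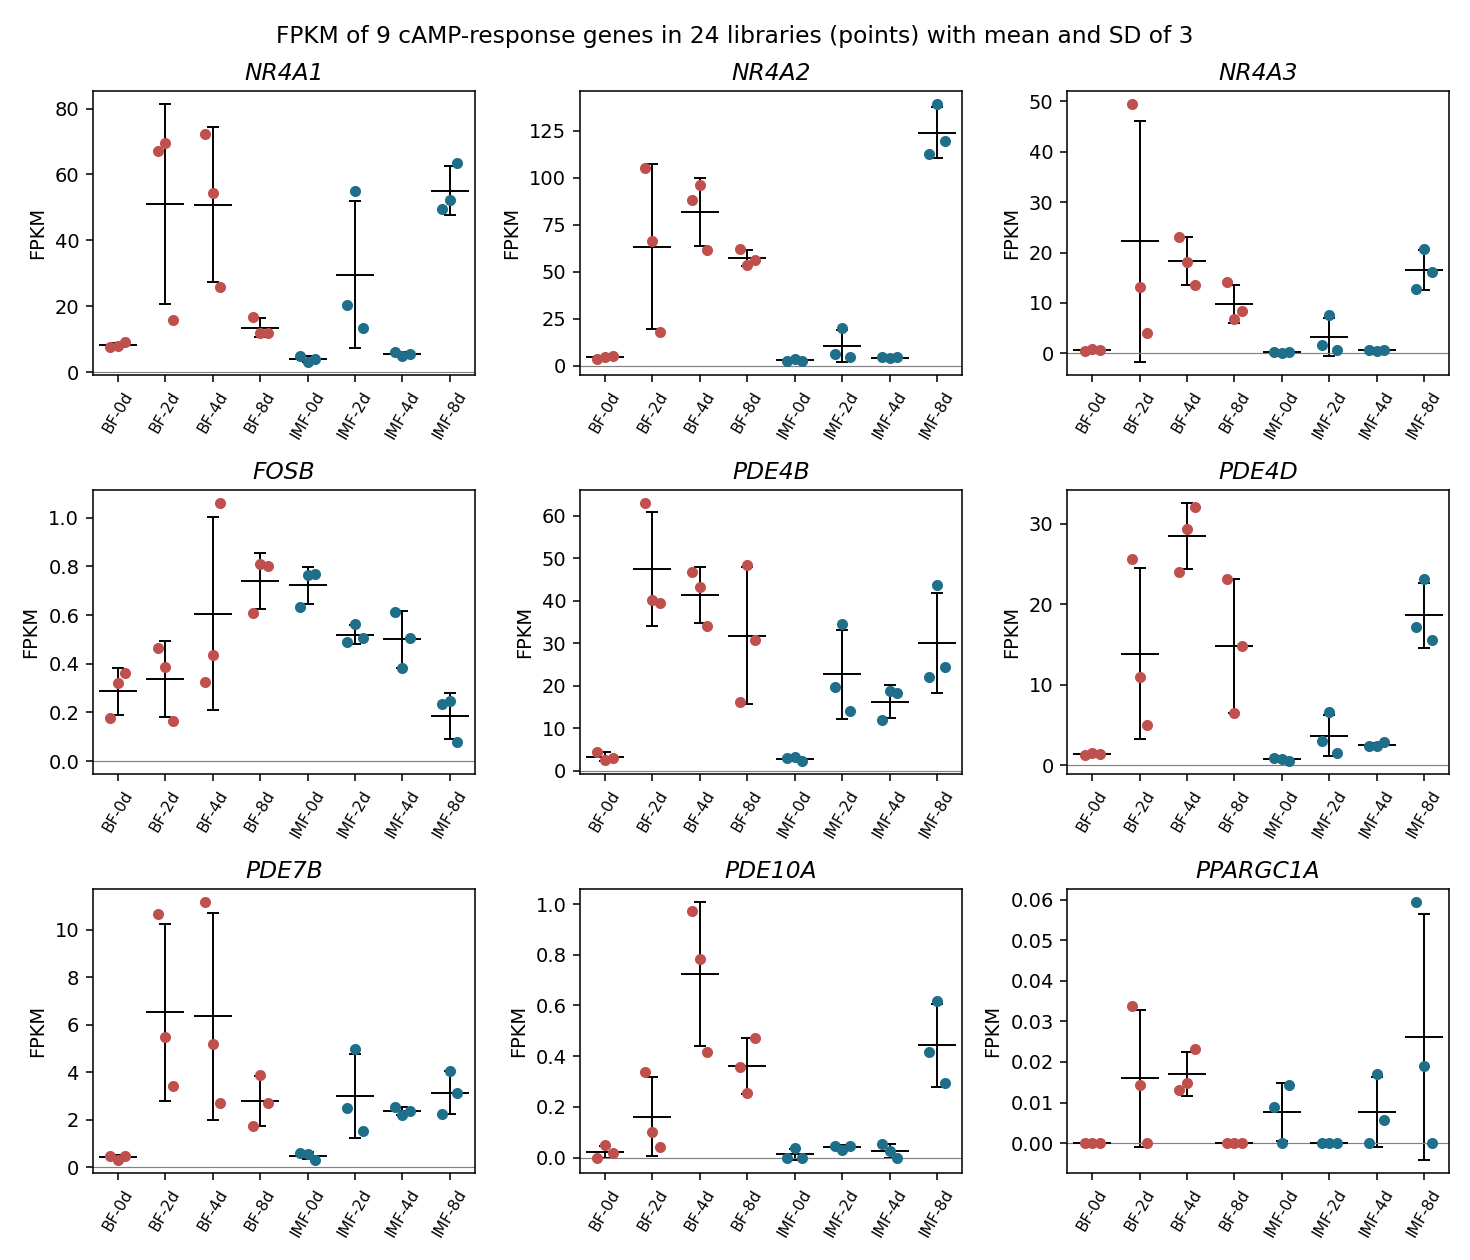
FPKM (linear axis from 0, scaled per gene) of the 9 matched members in each of the 24 libraries, with BF libraries in red, IMF libraries in blue and the mean ± SD of 3 libraries as black lines. The NR4A genes and PDE4D were low in IMF-4d and high in IMF-8d, and PDE4B, PDE4D and PDE7B were above day 0 in every later library.

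The first interval covered the time in induction medium. The groups hold no uninduced cells past day 0, so in every interval the medium and the time in culture cannot be told apart. In BF cells 6 of the 8 tested members rose from day 0 to day 2, against 2.71% of all tested genes that were called higher. PDE4B rose by 3.49 (SE 0.34, adjusted p = 4.24e-07), NR4A2 by 3.23 (SE 0.45, adjusted p = 2.37e-05) and NR4A3 by 3.22 (SE 0.58, adjusted p = 0.00035). PDE4D rose by 2.37 (SE 0.43), PDE7B by 2.30 (SE 0.37) and NR4A1 by 2.23 (SE 0.47, adjusted p = 0.00119). FOSB (0.05, SE 0.13) and PDE10A (0.18, SE 0.10) were not called. The rise held in every library for the 6 members, but its size in BF-2d replicate 3 was the smallest for each of them. Without BF-2d replicate 2, NR4A1 was not called (1.88, adjusted p = 0.0131), and when the other groups were kept out of the fit PDE4B alone of the 6 was called. The fit without the other groups called 237 of all genes, against 1063 with them. The adipocyte markers summed to 23.1 to 93.4 FPKM in the same BF-2d libraries, and of the 5 tested LPL and CEBPA were called higher, FABP4 was called lower, and the median difference was -0.29. The smooth muscle and pericyte markers summed to 68.2 to 607 FPKM in BF-2d against 1585 to 1674 in BF-0d, with 0 of 6 called higher and 3 lower. The stromal markers summed to 6547 to 12833 FPKM against 13573 to 14837, with PDGFRA called higher and COL1A1 lower of 7, and DES (-1.49) and the endothelial PECAM1 (-1.13) were called lower. The part of these 5 lists in the result was not tested.

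In IMF cells 2 of 8 members rose over the same interval, PDE4B by 2.56 (SE 0.34, adjusted p = 9.43e-05) and NR4A1 by 2.39 (SE 0.47, adjusted p = 0.00344), where 0.328% of all genes were called higher. NR4A2 (1.33, SE 0.45, adjusted p = 0.0769), NR4A3 (1.47, SE 0.58, adjusted p = 0.141), PDE4D (1.3, SE 0.43, adjusted p = 0.0704) and PDE7B (1.35, SE 0.37, adjusted p = 0.0274) had positive differences that did not pass, and PDE7B was called with a pseudocount of 0.1. The NR4A1 call was lost when any library but IMF-2d replicate 3 was left out, with adjusted p from 0.01 to 0.0285, and without IMF-2d replicate 2, the high one, its difference was 1.83. PDE4B stayed called in all of those fits. The smooth muscle and pericyte markers summed to 817 to 1130 FPKM in IMF-2d against 1773 to 2223 in IMF-0d, with CNN1 called lower of 6. DES was called lower (-2.96), with a myogenic sum of 3.07 to 4.69 FPKM against 29.7 to 45.4, 0 of 5 adipocyte markers and 0 of 7 stromal markers were called, and their part in the result was not tested. The difference between the depots in this interval was not called for any member by limma (0 of 8, with 2.45% of all genes called in either direction and 2 members, NR4A2 and NR4A3, at an unadjusted p under 0.05). It was -1.89 (SE 0.64) for NR4A2 and 0.16 (SE 0.67) for NR4A1. Without BF-2d replicate 3, NR4A2 was called. Without that library and IMF-2d replicate 2, NR4A2, NR4A3 and PDE4D were called, but the second of these libraries was chosen on the members' own values. These fits called 1182 and 1158 of all genes for this difference, against 395 with all libraries.

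From day 2 to day 4 the induction medium was replaced by insulin alone. No member was called by limma in BF cells (0 of 8, against 3.35% of all genes in either direction), with 2 members, PDE4D and PDE10A, at an unadjusted p under 0.05. PDE4D differed by 1.23 (SE 0.43, adjusted p = 0.0415) and was called without BF-2d replicate 1. PDE10A differed by 0.57 (SE 0.10, adjusted p = 0.00077), which passed the adjusted p but not the limit on size on this scale, and it passed both with a pseudocount of 0.1. In IMF cells 0 of 8 members were called, in an interval in which 0.0372% of all genes were, and NR4A1 was the member at an unadjusted p under 0.05. Its difference was -2.01 (SE 0.47, adjusted p = 0.0743), with all 3 IMF-4d libraries below all 3 IMF-2d libraries. NR4A2 (-0.84, SE 0.45) and NR4A3 (-1.02, SE 0.58) had smaller negative differences, and PDE4B (-0.39, SE 0.34) and PDE7B (-0.16, SE 0.37) differed little. The depot difference in this interval was called for 0 of 8 members by limma (3.06% of all genes, either direction), with 4 at an unadjusted p under 0.05. Of these, NR4A1 differed by -2.15 (SE 0.67, adjusted p = 0.0387) and PDE10A by -0.58 (SE 0.15, adjusted p = 0.0136), and NR4A2 and PDE4D had adjusted p of 0.125 and 0.111.

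In the last interval, after the return to growth medium, 4 of 8 members rose in IMF cells from day 4 to day 8, where 4.16% of all genes were called higher. NR4A2 rose by 4.54 (SE 0.45, adjusted p = 3.14e-07), NR4A3 by 3.41 (SE 0.58, adjusted p = 0.000175), NR4A1 by 3.13 (SE 0.47, adjusted p = 4.22e-05) and PDE4D by 2.44 (SE 0.43, adjusted p = 0.000199). For each of the 4, all IMF-8d libraries lay above all IMF-4d libraries. The same held for PDE4B and PDE10A, which were not called. PDE10A differed by 0.48 (SE 0.10, adjusted p = 0.00124), stayed under the limit on size and passed it with a pseudocount of 0.1, and PDE4B (0.81, SE 0.34, adjusted p = 0.073), PDE7B (0.28, SE 0.37) and FOSB (-0.34, SE 0.13, adjusted p = 0.0417) were not called. The calls of those 4 members stood in every alternative fit, each library of the 2 groups left out in turn included.

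In BF cells 0 of 8 members were called by limma in that interval, against 2.93% of all genes in either direction, and 4 members (NR4A1, PDE4D, PDE7B and PDE10A) were at an unadjusted p under 0.05. NR4A1 differed by -1.74 (SE 0.47, adjusted p = 0.014) and was called without BF-4d replicate 3. All of the 8 members but FOSB had negative differences, from -0.33 (PDE10A) to -1.74 (NR4A1). The difference between depots was itself called for 4 of 8 members, where 3.81% of all genes were called higher in the IMF change. It was 5.02 (SE 0.64, adjusted p = 2.25e-05) for NR4A2, 4.86 (SE 0.67, adjusted p = 5e-05) for NR4A1, 4.28 (SE 0.83, adjusted p = 0.00123) for NR4A3 and 3.48 (SE 0.61, adjusted p = 0.000476) for PDE4D. PDE4B (1.29, SE 0.49, adjusted p = 0.0715) and PDE7B (1.11, SE 0.52, adjusted p = 0.154) did not pass. PDE10A (0.81, SE 0.15, adjusted p = 0.000661) passed the adjusted p but not the limit on size, and was called with a pseudocount of 0.1. The adipocyte markers summed to 97.2 to 143 FPKM in IMF-8d against 11.4 to 14.3 in IMF-4d, with LPL called higher and CEBPA lower of 5 tested. In the interaction LPL was above. The smooth muscle and pericyte markers summed to 262 to 284 FPKM against 1145 to 1186, with RGS5 called higher and CNN1 and ACTA2 lower of 6. RGS5 was also above in the interaction, and CSPG4 and CNN1 were below. The stromal markers summed to 7294 to 8355 FPKM against 12501 to 12704, with COL1A1 called lower of 7 and COL1A1, LUM and COL3A1 below in the interaction, and DES differed by -2.24 (interaction -2.28, both called). The part of these 4 lists in the result was not tested.

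**Figure D2:**
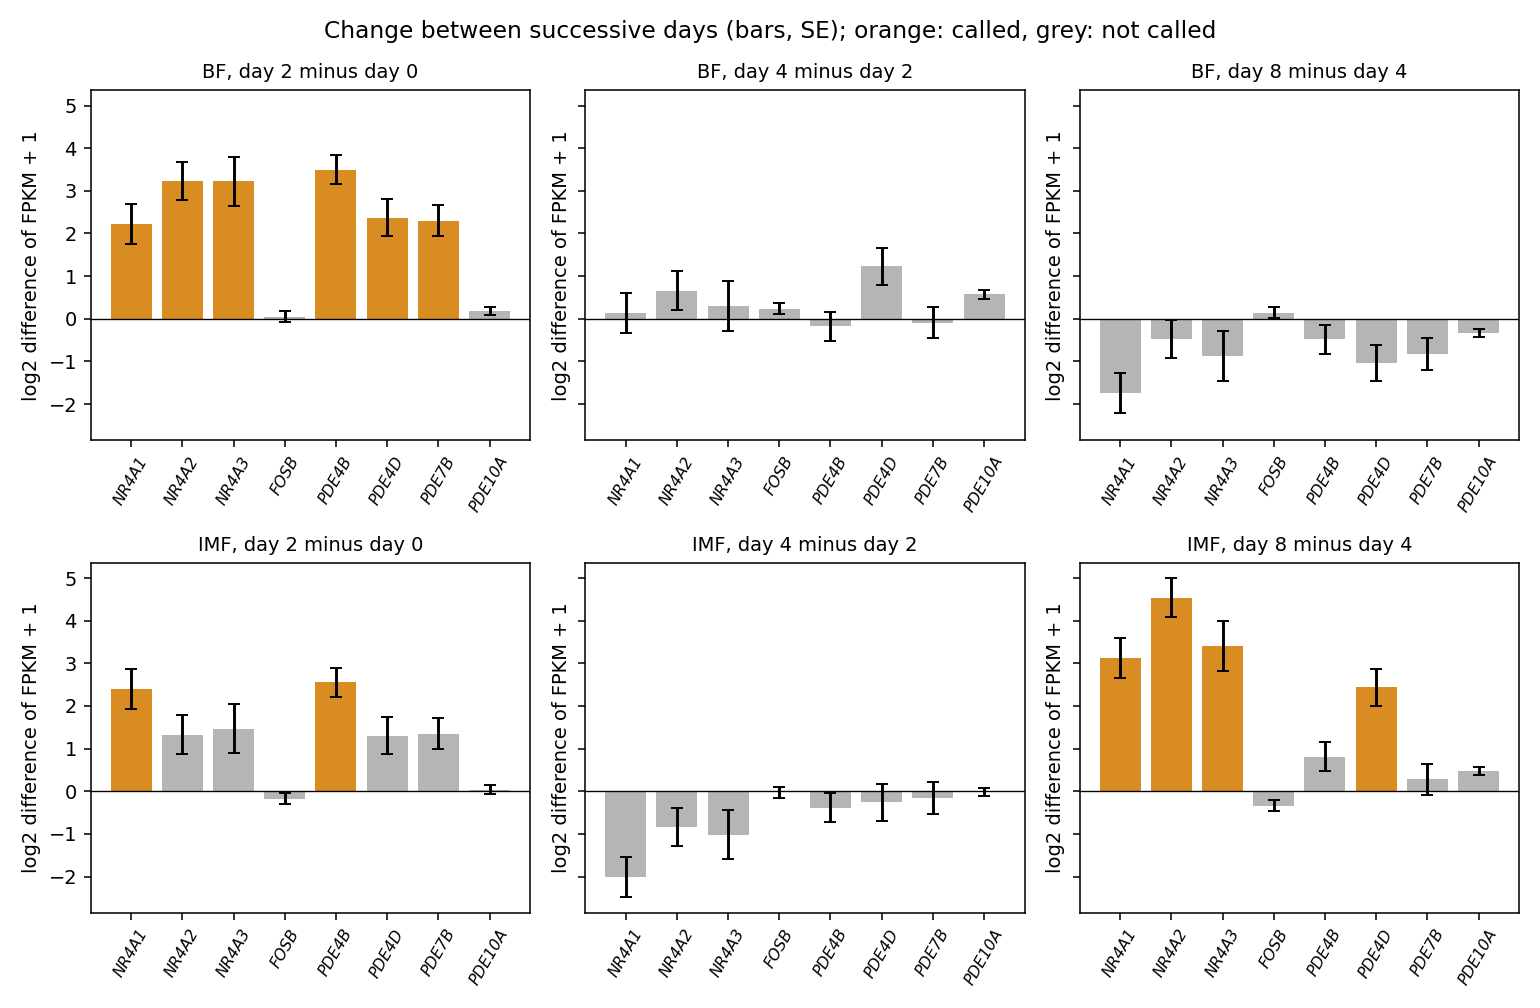
Log2 difference of FPKM + 1 (bars) with its standard error (lines) for the 8 tested members over the 3 intervals in BF cells (upper row) and IMF cells (lower row), with called genes in orange. In BF cells the called rises fell in day 0 to day 2 (2.23 to 3.49), and in IMF cells they fell in day 0 to day 2 (2.39 and 2.56) and in day 4 to day 8 (2.44 to 4.54).

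The comparisons of depots on 1 day share their libraries with the intervals above. On day 0, 0 of 8 members were called by limma (2.58% of all genes in either direction), and FOSB was the 1 member at an unadjusted p under 0.05 (0.42, SE 0.13, adjusted p = 0.0277). On day 2, 2 of 8 members were lower in IMF cells, NR4A2 by -2.43 (SE 0.45, adjusted p = 0.000685) and NR4A3 by -2.23 (SE 0.58, adjusted p = 0.00897), where 2.02% of all genes were called lower. The NR4A3 call was lost when BF-2d replicate 1 or 2 or IMF-2d replicate 1 or 3 was left out, and both calls were lost in a fit of only those 6 libraries. That fit called 107 of all genes, against 764 with all groups. PDE4D (-1.55, SE 0.43, adjusted p = 0.012) did not pass, but was called with a pseudocount of 0.1 and under median-ratio scaling. Without BF-2d replicate 3 PDE4D was called as well, and without IMF-2d replicate 2 PDE4B and PDE4D were. With both libraries left out, the 6 members NR4A1, NR4A2, NR4A3, PDE4B, PDE4D and PDE7B were called, but IMF-2d replicate 2 was chosen on the values of these members. Without BF-2d replicate 3 alone 1287 of all genes were called, and without both 1315, against 764 with all libraries. Of the markers, LPL, CEBPA and PPARG were called lower in IMF cells on day 2 (3 of 5 adipocyte, median -1.15), ACTA2, CSPG4 and CNN1 higher (3 of 6 smooth muscle and pericyte), and PDGFRA lower (1 of 7 stromal), and their part in the result was not tested.

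On day 4, 5 of 8 members were lower in IMF cells, against 4.72% of all genes. NR4A2 differed by -3.93 (SE 0.45, adjusted p = 1.09e-06), NR4A3 by -3.54 (SE 0.58, adjusted p = 7.34e-05), PDE4D by -3.04 (SE 0.43, adjusted p = 1.19e-05), NR4A1 by -2.90 (SE 0.47, adjusted p = 5.67e-05) and PDE4B by -1.31 (SE 0.34, adjusted p = 0.00442). The libraries of the 2 depots did not overlap for any of these genes on that day. Nor did they for PDE7B and PDE10A, which were not called. PDE4B was no longer called without BF-4d replicate 1 or 2 or without IMF-4d replicate 1 (adjusted p from 0.0158 to 0.0292). Without BF-4d replicate 3 the 5 members stayed called and PDE7B was called as well. PDE10A differed by -0.73 (SE 0.10, adjusted p = 1.24e-05), under the limit on size but past it with a pseudocount of 0.1, and PDE7B by -0.96 (SE 0.37, adjusted p = 0.0406). The adipocyte markers summed to 182 to 318 FPKM in BF-4d and 11.4 to 14.3 in IMF-4d, with LPL called lower in IMF cells of 5 tested. The smooth muscle and pericyte markers summed to 20.8 to 80.3 FPKM in BF-4d and 1145 to 1186 in IMF-4d, with ACTA2, CNN1 and CSPG4 called higher and RGS5 lower of 6. The stromal markers summed to 3943 to 6070 FPKM in BF-4d and 12501 to 12704 in IMF-4d, with COL1A1, COL1A2 and DCN called higher and PDGFRA and PDGFRB lower of 7, and the part of these 3 lists in the depot difference was not tested.

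On day 8 the order was turned for NR4A1, which was higher in IMF cells by 1.96 (SE 0.47, adjusted p = 0.00285) as the 1 member called of 8, where 4.31% of all genes were called higher. All 3 IMF-8d libraries lay above all 3 BF-8d libraries, as they also did for NR4A2, which did not pass. The NR4A1 call was lost without BF-8d replicate 2 or 3 or IMF-8d replicate 3 (1.86 to 1.89, adjusted p from 0.0119 to 0.0148). NR4A2 (1.10, SE 0.45, adjusted p = 0.0629) and NR4A3 (0.74, SE 0.58, adjusted p = 0.351) did not pass, although NR4A2 was called with only the compared libraries, and PDE4B (-0.01, SE 0.34) and PDE7B (0.15, SE 0.37) had close means. FOSB differed by -0.55 (SE 0.13, adjusted p = 0.00182), past the adjusted p but under the limit on size, and was called with a pseudocount of 0.1. On that day FABP4 was called lower in IMF cells of 5 adipocyte markers and 3 of 6 smooth muscle and pericyte markers were called higher (ACTA2, RGS5 and CNN1), COL1A1 was higher and LUM lower of 7 stromal markers, DES (1.33) and PECAM1 (1.03) were higher, and their part in the result was not tested.

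**Figure D3:**
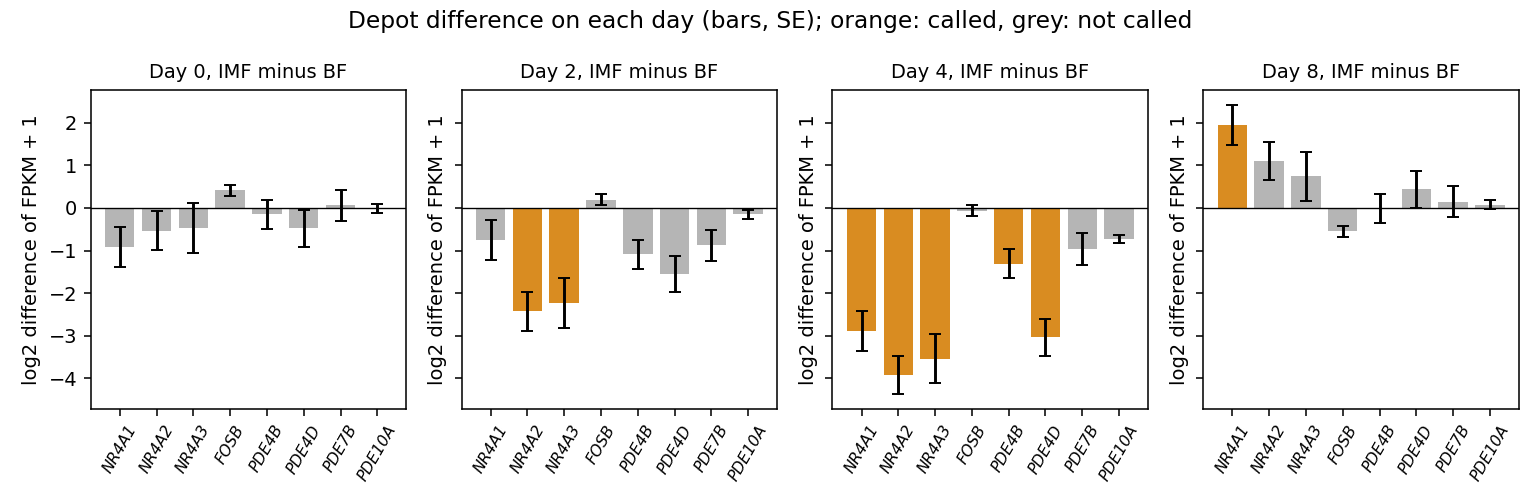
Log2 difference of FPKM + 1 between IMF and BF cells (bars, with the standard error as lines) on days 0, 2, 4 and 8 for the 8 tested members, with called genes in orange. The NR4A genes were lower in IMF cells on day 4 (-2.90 to -3.93) and NR4A1 was higher on day 8 (1.96).

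Other cAMP-responsive and immediate early genes were read from a list of 28, of which 24 were matched and tested. JUN, JUND, IER2 and BTG2 were not analysed here. In BF cells 12 of 24 rose and 1 fell from day 0 to day 2, with a median difference of 1.08 against -0.037 over all tested genes, of which 6.59% were called in either direction. PCK1, the gluconeogenic and glyceroneogenic enzyme PEPCK, rose from 0.0686 ± 0.0425 to 366 ± 305 FPKM (7.50, SE 0.78, adjusted p = 1.08e-06). RGS2, which curbs G protein signals, rose by 5.37 (SE 0.62) and PTGS2, the prostaglandin synthase COX-2, by 4.70 (SE 0.65). KLF4, a transcription factor of early adipogenesis, fell by 1.80 on the log2 scale (adjusted p = 0.00038). In IMF cells 2 of 24 rose in this interval, where 0.787% of all genes were called, PER1 by 1.10 (SE 0.15) and EGR1 by 1.08 (SE 0.18), and PCK1 was at most 0.344 FPKM in every IMF library up to day 4. The BF counts became 3 and 0 in a fit of the compared libraries alone, and 14 and 1 without both doubted day 2 libraries, and the IMF counts became 1 and 0 in the former. In BF cells those fits called 237 and 1608 of all genes, against 1063. In IMF cells the former called 167 of all genes, against 127.

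The last interval gave 13 calls of the list in IMF cells and 4 in BF cells, where 7.25% and 2.93% of all genes were called. From day 4 to day 8 in IMF cells 10 of 24 rose and 3 fell (median 0.41, all genes -0.074). PTGS2 rose by 6.73 (SE 0.65, adjusted p = 2.7e-07), PCK1 by 6.09 (SE 0.78, adjusted p = 7.77e-06) and RGS2 by 5.30 (SE 0.62, adjusted p = 3.06e-06). EGR1 (-1.65, SE 0.18), EGR3 (-1.51, SE 0.23) and FOS (-1.21, SE 0.16), which serum and mitogens induce, fell in the same libraries. In BF cells PTGS2, AREG and IER3 rose from day 2 to day 4 by 3.47, 2.45 and 1.61 (3 of 24 called, against 3.35% of all genes), and over the last interval ATF3 (1.77) and CITED2 (1.26) rose and FOSL2 (-1.28) and DUSP1 (-1.26) fell, and in both intervals a fit of the compared libraries alone called 0 of 24. That fit called 0 and 4 of all 16135 genes in those intervals, so its 0 of 24 says nothing particular of the list. From day 2 to day 4 in IMF cells limma called 0 of 24, against 0.0372% of all genes, with 6 at an unadjusted p under 0.05.

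Between depots the same list gave 1 call on day 0 (VGF, 1.55 higher in IMF cells), where 2.58% of all genes were called. On day 2 it gave 3 higher and 9 lower in IMF cells, against 4.74% of all genes in either direction, led by PCK1 (-7.41), PTGS2 (-4.44) and RGS2 (-3.89) among the lower and by KLF4 (1.54), EGR3 (1.33) and EGR2 (1.28) among the higher. Both were 0 in a fit of only the day 2 libraries, which called 107 of all genes, against 764 with all groups. On day 4 it gave 3 higher (KLF4, VGF and GADD45B, 1.06 to 1.54) and 11 lower, where 11.3% of all genes were called, led by PTGS2 (-8.68, SE 0.65), AREG (-6.96, SE 0.48) and PCK1 (-6.87, SE 0.78). On day 8 it gave 2 higher (RGS2, 2.98, and FOSL2, 1.34) and 7 lower, against 6.96% of all genes, led by IER3 (-2.33), PTGS2 (-2.29) and ATF3 (-2.01). The PTGS2 call on day 8 was lost with a pseudocount of 0.1, with no filter and under the replicate block, and the ATF3 call with only the compared libraries. The change of IMF cells exceeded that of BF cells from day 4 to day 8 in 8 of 24 genes and was below it in 3, where 6.39% of all genes were called. PCK1 (7.85, SE 1.10), RGS2 (6.97, SE 0.88) and PTGS2 (6.39, SE 0.91) led the former, and ATF3 (-2.48), KLF4 (-2.16) and EGR3 (-1.64) the latter. The counts became 7 and 2 with no filter and with only the compared libraries, and the ATF3 call was lost in both. In the first interval 1 gene was above (EGR2, 1.07) and 5 below, led by PCK1 (-7.33), AREG (-5.06) and RGS2 (-4.63), and in the second 2 were above (FOS, 1.27, and VGF, 1.09) and 3 below (PTGS2, -4.24, AREG, -3.11, and TRIB1, -1.19), where 2.45% and 3.06% of all genes were called. Without BF-2d replicate 3 and IMF-2d replicate 2, a choice made after seeing the data, the first interval gave 3 above and 11 below, and the second gave 1 and 1. With that choice 1158 and 245 of all genes were called in these interactions, against 395 and 493 with all libraries. With only the compared libraries the first gave 0 above and 3 below and the second 0 and 0, and with no filter on low values the second gave 2 and 0. The compared libraries alone called 132 and 33 of all genes in the first and second.

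**Figure D4:**
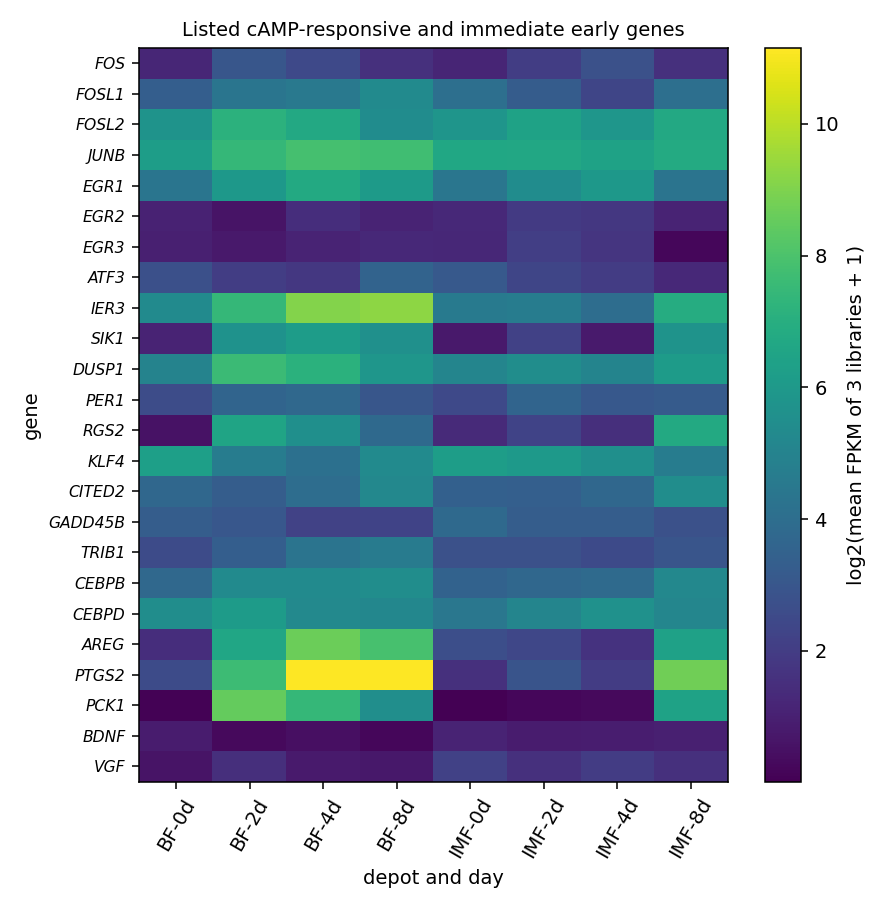
Heat map of log2(mean FPKM of 3 libraries + 1) for the 24 matched cAMP-responsive and immediate early genes (rows) in the 8 groups (columns). PCK1, RGS2, SIK1, AREG and PTGS2 were high in BF cells from day 2 and in IMF-8d, and low in IMF cells until day 4.

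Of the other phosphodiesterase genes 15 were listed and 13 tested, with PDE1B and PDE11A too low. The calcium-activated PDE1A fell in BF cells from day 0 to day 2, from 16.9 ± 0.495 to 2.66 ± 2.33 FPKM (-2.46, SE 0.27, adjusted p = 1.64e-06). PDE5A, specific for cGMP, fell by 1.43 on the log2 scale and PDE1C by 1.32, and PDE3B, the enzyme through which insulin restrains lipolysis, rose from 0.249 ± 0.0748 to 3.83 ± 3.39 FPKM (1.68, SE 0.33, adjusted p = 0.000636). PDE8B rose from day 2 to day 4 (1.20, SE 0.23) and PDE4C from day 4 to day 8 (1.02, SE 0.14) in BF cells. These were 4 of 13, 1 and 1 calls, where 6.59%, 3.35% and 2.93% of all genes were called, and a fit of the compared libraries alone called 0 of 13 in each of the 3 intervals. That fit called 237, 0 and 4 of all genes in them. The PDE8B call was also lost without both doubted day 2 libraries, where 382 of all genes were called, against 541. In IMF cells PDE1C fell from day 0 to day 2 (-1.35, SE 0.26), 0 of 13 were called by limma from day 2 to day 4 (2 at an unadjusted p under 0.05), and from day 4 to day 8 PDE8B (2.23, SE 0.23), PDE4C (1.47, SE 0.14) and PDE3A (1.36, SE 0.23) rose while PDE1A fell (-1.78, SE 0.27). These were 1 and 4 calls of 13, where 0.787% and 7.25% of all genes were called, and the PDE1C call in IMF cells was lost with a pseudocount of 0.1. PDE8A and PDE4A were expressed in all groups and were called in none of the 13 comparisons in the fit reported, but with a pseudocount of 0.1 or median-ratio scaling PDE4A was called lower in IMF cells on day 8, and under the latter PDE4A was called in BF cells from day 4 to day 8 and PDE8A lower in IMF cells on day 4.

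Between depots 0 of 13 of these enzymes were called by limma on day 0, with 4 at an unadjusted p under 0.05. On day 2 PDE1A (1.37) and PDE5A (1.34) were higher and PDE3B (-1.72) lower in IMF cells, and a fit of the day 2 libraries alone called none of the 13. That fit called 107 of all genes, against 764 with all groups. On day 4 PDE1A (2.03) and PDE1C (1.59) were higher and PDE3B (-1.97) and PDE8B (-1.60) lower. On day 8 PDE1C (1.45) and PDE3A (1.04) were higher, 2 higher and 0 lower, which became 1 and 1 under median-ratio scaling. The calls on days 0, 2, 4 and 8 were thus 0, 3, 4 and 2 of 13, where 2.58%, 4.74%, 11.3% and 6.96% of all genes were called. The change from day 4 to day 8 was above that of BF cells for PDE3B (1.90, SE 0.46), PDE8B (1.80, SE 0.32) and PDE3A (1.43, SE 0.33) and below it for PDE1A (-1.81, SE 0.39), and PDE1A was the 1 gene above it from day 0 to day 2 (2.14, SE 0.39), 4 and 1 calls of 13 where 6.39% and 2.45% of all genes were called. The PDE1A call from day 0 to day 2 was lost with only the compared libraries, and with no filter on low values the last interval gave 2 above and 1 below. Without both doubted day 2 libraries the first gave 2 above (PDE1A and PDE5A) and 2 below (PDE3B and PDE8B), where 1158 of all genes were called, against 395. In the middle interval 0 of 13 were called by limma, against 3.06% of all genes, with 4 at an unadjusted p under 0.05.

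**Figure D5:**
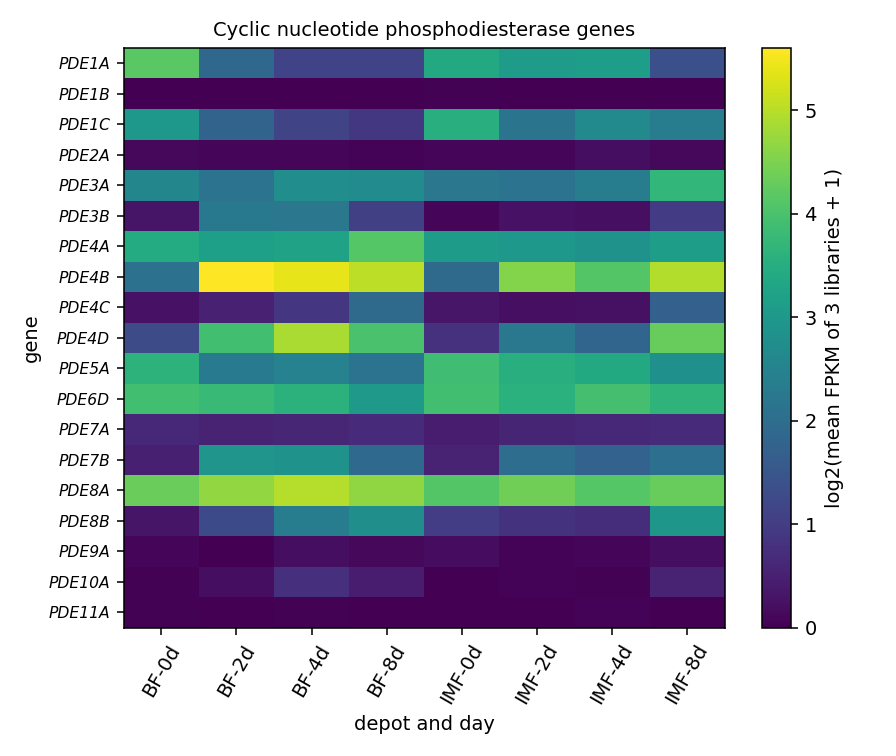
Heat map of log2(mean FPKM of 3 libraries + 1) for the 19 matched phosphodiesterase genes (rows) in the 8 groups (columns), PDE6D included, which encodes a binding protein and no catalytic subunit. PDE4B in BF-2d was the highest value (47.5 ± 13.4 FPKM), and PDE1A and PDE5A were highest on day 0.

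Genes that make or sense cAMP were read from 2 more lists. Of 23 receptors, G proteins and adenylyl cyclases, 17 were tested, GNAS was not analysed here, and ADRB1, ADRB3, ADCY1 and ADCY8 were too low. In each depot limma called 0 of 17 in the first and in the second interval, with 9 and 4 at an unadjusted p under 0.05 in BF cells and 2 and 1 in IMF cells. Of all genes 6.59% and 3.35% were called in these BF intervals and 0.787% and 0.0372% in these IMF intervals. From day 4 to day 8 the prostacyclin receptor PTGIR rose in BF cells (2.06, SE 0.18), and PTGIR (2.97, SE 0.18, adjusted p = 2.73e-10) and the inhibitory G protein GNAI1 (1.10, SE 0.23) rose in IMF cells, 1 and 2 calls of 17 where 2.93% and 7.25% of all genes were called. The PTGIR call in BF cells was lost with only the compared libraries, a fit that called 4 of all genes there. ADCY3 was higher in IMF cells on days 4 and 8 (1.04 and 1.19, SE 0.13 each), GNAI1 (-1.08) and PTGIR (-1.04) were lower on day 4, and the prostaglandin receptor PTGER4 was lower on day 8 (-1.73). These were 3 calls of 17 on day 4 and 2 on day 8, against 11.3% and 6.96% of all genes, and the ADCY3 call on day 4 was lost under median-ratio scaling. The IMF change exceeded the BF change from day 4 to day 8 for GNAI1 (1.49, SE 0.32), 1 call of 17 where 6.39% of all genes were called. In the other comparisons of depots limma called 0 of 17, with 4 at an unadjusted p under 0.05 on day 0, 7 on day 2, and 6 and 1 in the earlier interactions. Of all genes 2.58%, 4.74%, 2.45% and 3.06% were called in these.

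Of 15 subunits, inhibitors and anchors of protein kinase A and EPAC genes, 14 were tested and AKAP13 was not analysed here. PKIA, a peptide inhibitor of the kinase, fell from 49.7 ± 2.32 to 14.9 ± 3.62 FPKM in BF cells from day 0 to day 2 (-1.70, SE 0.26), together with the anchor AKAP12 (-1.23, SE 0.27), which fell again to day 4 (-1.32). PKIB (2.76, SE 0.47) and the regulatory subunit PRKAR2B (1.14, SE 0.19) rose in BF cells from day 2 to day 4. With only the compared libraries 1 of 14 was called in BF cells from day 0 to day 2 and none from day 2 to day 4, where 237 and 0 of all genes were called. In IMF cells limma called 0 of 14 up to day 4, with 3 and 1 at an unadjusted p under 0.05, and from day 4 to day 8 PKIB (2.54, SE 0.47) and the cAMP-activated exchange factor RAPGEF4 (1.33, SE 0.06, adjusted p = 9.86e-12) rose while AKAP12 (-1.58) and PRKAR2A (-1.41) fell. In the IMF intervals up to day 4, 0.787% and 0.0372% of all genes were called. AKAP12 was higher in IMF cells on days 2, 4 and 8 (1.45, 3.27 and 2.55), PKIB (-3.24) and PRKAR2B (-2.04) were lower on day 4, and PKIG (1.34) and RAPGEF4 (1.29) were higher on day 8. In the interactions AKAP12 was above in the first 2 intervals (1.66 and 1.82), PRKAR2B was below in the second (-1.15), and RAPGEF4 (1.41), PKIG (1.16) and PRKAR2B (1.09) led 4 genes above in the third. Of the 14 genes, 2 were called in the first and 3 in the second interval of BF cells, against 6.59% and 3.35% of all genes, and 4 in the last interval of IMF cells, against 7.25%. Between depots 1, 3 and 3 were called on days 2, 4 and 8, against 4.74%, 11.3% and 6.96%, and 1, 2 and 4 in the 3 interactions, against 2.45%, 3.06% and 6.39%. The AKAP12 call in the first interval and the PRKAR2B call in the second were lost with a pseudocount of 0.1, with no filter on low values, under the replicate block and with only the compared libraries, and the last of these also called none in the second interval and none of the 14 between depots on day 2. With only the compared libraries 132 and 33 of all genes were called in those interactions, and 107 on day 2. Limma called 0 of 14 in BF cells from day 4 to day 8 and 0 between depots on day 0, with 5 and 3 at an unadjusted p under 0.05. There 2.93% and 2.58% of all genes were called.

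Of 13 CREB family members and coactivators, 12 were tested and ATF4 was not analysed here. CREB5 rose over the last interval in both depots (1.47, SE 0.32, in BF cells and 1.35, SE 0.32, in IMF cells), and was lower in IMF cells on days 4 and 8 (-1.23 and -1.35). CREB3L1, of the stress-regulated branch, fell in IMF cells in the last interval (-1.15, SE 0.24), was higher there on day 4 (1.38), and had an interaction of -1.35 (SE 0.33). These were 1 and 2 calls of 12 over the last interval in BF and IMF cells, 2 and 1 on days 4 and 8 and 1 in the interaction, where 2.93%, 7.25%, 11.3%, 6.96% and 6.39% of all genes were called. With only the compared libraries the CREB5 calls in BF cells and on day 4 and the CREB3L1 interaction were lost, the last also with no filter on low values, and the CREB3L1 fall in IMF cells was not called under median-ratio scaling. The compared libraries alone called 4 of all genes in the last interval of BF cells. Limma called 0 of 12 in both earlier intervals of BF cells (5 and 4 at an unadjusted p under 0.05) and of IMF cells (3 and 0), on days 0 and 2 between depots (0 and 5), and in the earlier interactions (3 each). Of all genes 6.59% and 3.35% were called in those BF intervals and 0.787% and 0.0372% in those IMF intervals. The shares were 2.58% and 4.74% on those days and 2.45% and 3.06% in those interactions.

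Of 17 partners and targets of PPARGC1A, 13 were tested, CIDEA was not analysed here, and ESRRG, UCP3 and FNDC5 were too low. DIO2, the deiodinase that makes active thyroid hormone and a cAMP target of brown fat, rose in BF cells from day 0 to day 2 (0.603 ± 0.117 to 7.76 ± 5.5 FPKM, 2.18, SE 0.51) and in IMF cells from day 4 to day 8 (6.20 ± 0.150 to 50.2 ± 12.0 FPKM, 2.80, SE 0.51). It was higher in IMF cells on day 8 (2.82), as was the respiratory protein CYCS (1.04), which rose by 1.05 from day 4 in IMF cells. PDK4, which restrains glucose oxidation, fell in BF cells from day 4 to day 8 (-1.34, SE 0.34) and was lower in IMF cells on day 4 (-1.97), and the last interaction was above for DIO2 (3.81) and CYCS (1.38) and below for PPRC1 (-1.07). In BF cells 1 of 13 was called in the first and 1 in the last interval, against 6.59% and 2.93% of all genes, and in IMF cells 2 in the last, against 7.25%. Between depots 1 and 2 were called on days 4 and 8 and 3 in the last interaction, against 11.3%, 6.96% and 6.39%. With only the compared libraries the rise of DIO2 in BF cells and both PDK4 calls were lost. That fit called 237 and 4 of all genes in the first and last intervals of BF cells. The PDK4 fall in BF cells was also lost with a pseudocount of 0.1, with no filter and under median-ratio scaling, and the PPRC1 call with no filter. Limma called 0 of 13 in BF cells from day 2 to day 4 (3 at an unadjusted p under 0.05), in both earlier IMF intervals (2 and 0), on days 0 and 2 between depots (3 and 7) and in the earlier interactions (5 and 3). Of all genes 3.35% were called in that BF interval and 0.787% and 0.0372% in those IMF intervals. The shares were 2.58% and 4.74% on those days and 2.45% and 3.06% in those interactions.

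The genes whose 8 group means of log2(FPKM + 1) ran most like those of each member were taken by Pearson's r among 10086 or 10087 genes with a symbol and at least 1 FPKM in some group. With 8 points from the same 24 libraries these values are descriptions. NR4A2 was closest to the salt-inducible kinase SIK3 (0.994), OAZ2 (0.987) and SIK1 (0.986), and NR4A3 to NR4A2 (0.985), SIK1 (0.984) and CXCL14 (0.980). SIK1, a kinase induced by cAMP that acts back on CREB coactivators, measured 71.0 ± 3.49 FPKM in BF-4d, 0.766 ± 0.137 in IMF-4d and 52.1 ± 2.94 in IMF-8d. NR4A1 was nearest to API5 (0.946), BPNT2 (0.936) and GCNT1 (0.924). PDE4D was nearest to CLMP (0.995), COL4A1 (0.988) and MMD (0.983). PDE4B and PDE7B were each nearest to the other (0.976), followed by ZFP36L1 (0.974) and RNF145 (0.971) for PDE4B and by RNF145 (0.971) and ID1 (0.964) for PDE7B. The low PDE10A was nearest to GLP1R (0.998), SPOCK2 (0.991) and TP53BP2 (0.981) and FOSB to GMPS (0.946), UBAP1 (0.943) and PSMA4 (0.942). Among the members, r was 0.973 for NR4A2 and PDE4D and 0.975 for NR4A3 and PDE4D, against 0.762 for NR4A2 and PDE7B, and every pair with FOSB was between -0.459 and -0.012.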

How the data were processed

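The values analysed were FPKM, 1 per gene and library. Per the labels and methods, the authors mapped reads to Sscrofa11.1 with HISAT2, StringTie 1.3.4d assembled the transcripts and gave their values, and the deposited FPKM are scaled by length and library. Their DESeq2 1.6.3 results were not used. FPKM keep no counts. The ratios of 426 low values between 2 libraries spread widely (4.23% in the fullest bin), so whole reads were not recovered and the reads behind a value are unknown. Of 4503 genes with a median over 10 FPKM, 4 were listed at 0 in some library, so a 0 can be a failed estimate.

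Genes with a summed FPKM over 1 (16135) were fitted with limma 3.58.1 in R 4.3.3 on log2(FPKM + 1), with 1 mean per group, trend and robust variances and 13 contrasts. A call needed an adjusted p under 0.01 and a log2 difference of at least 1. Counts at an unadjusted p under 0.05, and libraries that did not overlap, are given without a share of all genes. The procedure was tested on simulated data. The members and lists were chosen with earlier results of these data known. All members were named, up to 3 called genes per direction, list and contrast, and the 3 genes most like each member. Alternatives were a pseudocount of 0.1, no filter, median-ratio scaling, only the compared libraries, a replicate block, each library left out, and both doubted day 2 libraries left out. Sequences and starts are from RefSeq on Sscrofa11.1. Some items are not reported here.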

Additional observations from a re-analysis of the deposited data

Results flagged for a closer look

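The change from day 4 to day 8 differed between depots for 4 members, by the test of the difference itself (limma, IMF change minus BF change). It was 5.02 for NR4A2, 4.86 for NR4A1, 4.28 for NR4A3 and 3.48 for PDE4D on the log2(FPKM + 1) scale. For NR4A2 the means went from 4.35 to 124 FPKM in IMF cells and from 81.7 to 57.3 FPKM in BF cells, and for NR4A1 from 5.41 to 55.1 FPKM and from 50.8 to 13.5 FPKM. For NR4A3 they went from 0.625 to 16.5 FPKM in IMF cells and from 18.3 to 9.77 FPKM in BF cells, and for PDE4D from 2.57 to 18.6 FPKM and from 28.5 to 14.8 FPKM. All 4 differences stayed called in every alternative fit.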

How the results depend on the processing

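Of the 24 calls of members, 24 were kept with a pseudocount of 0.1, 23 without the filter on low values, 24 under median-ratio scaling, 16 with only the compared libraries, and 19 in every fit that left out 1 library, and 0 reversed. Median-ratio scaling moved the median of all genes by 0.107 (BF, day 4 to day 8), 0.136 (IMF, day 4 to day 8), -0.124, -0.134 and -0.105 (IMF minus BF on days 2, 4 and 8). The numbers of members called moved as follows, and the cause was not tested. With only the compared libraries, which leaves fewer samples to estimate the spread, 1 member was called in BF and 1 in IMF from day 0 to day 2, 0 between depots on day 2 and 2 on day 8. Over all genes that fit called 237, 167, 107 and 1059 in these, against 1063, 127, 764 and 1123 with all groups. A pseudocount of 0.1 gave 1 in BF from day 2 to day 4 (PDE10A) and 2 on day 8 (NR4A1 and FOSB), and no filter gave 1 on day 2. Leaving out 1 library gave 0 to 1 in BF in each of the later intervals, 5 to 6 in BF and 1 to 2 in IMF from day 0 to day 2, 1 to 4 between depots on day 2, 0 to 1 on day 8 and 0 to 1 in the interaction from day 0 to day 2. Without BF-2d replicate 3 and IMF-2d replicate 2, chosen after seeing the data and the second on the members' own values, 6 were called on day 2 and 3 in that interaction. Over all genes 1315 and 1158 were called there, against 764 and 395 with all libraries. Whether replicate numbers pair the samples was not settled. Of 84 same-numbered pairs 9 had deviations correlated over 0.1 (r from -0.454 to 0.457), but pairs with different numbers were not compared. The replicate block kept all 24 calls and gave 1 call in BF from day 4 to day 8 (NR4A1) in place of 0. FPKM hold no read counts, so no counting error can be given for low members such as PDE10A, FOSB and PPARGC1A.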
